A study of Mus musculus with 8 samples.

Results

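The genes that build the junctions between cells were examined in the mouse uterus early after mating, with and without Nr2f2, the orphan nuclear receptor also called COUP-TFII. The set holds 77 of the 24963 genes in the deposited FPKM table. It was taken by gene symbol: the claudins, occludin and the Tjp plaque proteins, the connexins, the cadherins named Cdh with a number, and the desmosomal genes (desmogleins, desmocollins, desmoplakin, plakoglobin and the plakophilins). Cldn5, Gja4, Gja5 and Cdh5, which mark blood vessels, were left out. FPKM, the number of fragments scaled by gene length and by the size of the library, is a level per length, so it allows levels of different genes to be set beside each other.

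RNA-seq was performed on whole uterus at gestation day (GD) 3.5. The Nr2f2 f/f group holds 4 libraries from mice with floxed Nr2f2 alleles and no Cre, which the labels call WT, and the Nr2f2 d/d group holds 4 from mice that are Pgr Cre/+ and Nr2f2 flox/flox. The Cre is a knock-in at the progesterone receptor gene, so Nr2f2 is removed in cells that express or have expressed Pgr, and Nr2f2 d/d mice also carry 1 Pgr allele with the insertion, which the controls lack. The strain label of both groups is C57B6/J. Females were mated at 8 weeks per the labels, or at 2 to 3 months of age per the methods of the study, with vasectomized males, so the uteri held no embryo. The tissue is not separated by cell type: for each gene, fewer cells of a type and less RNA per cell cannot be told apart.

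Tight junctions seal the space between neighbouring epithelial cells: claudins and occludin span the membrane, and the Tjp (zonula occludens) proteins hold them to the actin cytoskeleton. Gap junctions are channels of connexins that pass small molecules between cells, adherens junctions join cells through cadherins, and desmosomes tie the keratin filaments of neighbouring cells together through desmogleins, desmocollins, plakoglobin, plakophilins and desmoplakin. In the rodent uterus these contacts are remodelled in the luminal epithelium and the stroma before an embryo attaches.

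Among the junction genes, levels of Cdh4, Tjp3, Dsc2 and Cldn15 rose in Nr2f2 d/d uteri, and Tjp1 was lower by the looser threshold of the study. The promoters of the tight junction genes among them are shown because the binding motif of NR2F2, the removed factor, is short enough to be looked for in them. They are RefSeq promoters on GRCm38.p6, each running from 250 bases before to 50 bases after a transcript start, 5′ to 3′ on the strand of the gene. Capitals mark every match, on either strand, to AGGTCA or GGGTCA (the half-site of NR2F2 and other nuclear receptors), CACCTG (the E-box of Snail and Zeb repressors) or AACCGG (the core of the Grainyhead-like site). The first is the Tjp3 promoter at chr10:81291532-81291831 (minus strand), the second the Tjp3 promoter at chr10:81291218-81291517 (minus strand), then come Cldn15 at chr5:136967619-136967918 (plus strand) and Tjp1 at chr7:65371195-65371494 (minus strand).
Tjp3, promoter 1: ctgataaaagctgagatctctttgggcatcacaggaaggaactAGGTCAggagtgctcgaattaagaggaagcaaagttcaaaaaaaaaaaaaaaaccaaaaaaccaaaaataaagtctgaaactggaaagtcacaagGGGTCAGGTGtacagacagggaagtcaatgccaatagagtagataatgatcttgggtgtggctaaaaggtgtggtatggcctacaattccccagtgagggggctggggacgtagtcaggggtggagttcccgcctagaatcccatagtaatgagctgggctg
Tjp3, promoter 2: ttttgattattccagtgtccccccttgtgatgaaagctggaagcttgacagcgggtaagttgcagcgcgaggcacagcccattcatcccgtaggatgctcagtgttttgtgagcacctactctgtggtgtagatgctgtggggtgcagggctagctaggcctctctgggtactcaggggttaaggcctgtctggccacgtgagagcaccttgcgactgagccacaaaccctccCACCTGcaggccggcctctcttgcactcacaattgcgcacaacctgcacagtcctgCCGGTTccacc
Cldn15: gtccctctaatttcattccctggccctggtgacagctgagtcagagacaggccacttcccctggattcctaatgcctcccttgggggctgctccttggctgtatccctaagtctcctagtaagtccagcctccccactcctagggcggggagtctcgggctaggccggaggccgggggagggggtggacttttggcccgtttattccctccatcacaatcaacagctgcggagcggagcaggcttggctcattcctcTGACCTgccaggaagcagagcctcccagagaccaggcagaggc
Tjp1: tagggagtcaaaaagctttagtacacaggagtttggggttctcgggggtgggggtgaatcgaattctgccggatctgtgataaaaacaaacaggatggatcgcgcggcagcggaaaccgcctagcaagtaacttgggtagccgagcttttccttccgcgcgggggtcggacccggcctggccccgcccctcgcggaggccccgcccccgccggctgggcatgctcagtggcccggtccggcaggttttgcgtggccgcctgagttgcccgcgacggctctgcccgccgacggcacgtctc

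The first Tjp3 promoter holds AGGTCA at base 44 and GGGTCA at base 139, the latter overlapping a CACCTG on the opposite strand at base 143. The second Tjp3 promoter holds CACCTG at base 234 and AACCGG on the opposite strand at base 290. The Cldn15 promoter holds AGGTCA on the opposite strand (TGACCT as printed) at base 258, and none of the 4 motifs was found in the Tjp1 window. Such matches are common. AGGTCA is in 16.3% of all 32851 promoters and in 20.6% of the 63 promoters that 46 junction genes have in the table. GGGTCA is in 13.7% of all and 15.9% of these, CACCTG in 20.2% and 28.6%, and AACCGG in 6.83% and 7.94%. The matches are a description of letters and show no binding.

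Nr2f2 itself was at 25.3, 21.8, 25.7 and 23.5 FPKM in the Nr2f2 f/f libraries and at 9.66, 9.42, 6.90 and 9.74 FPKM in the Nr2f2 d/d libraries. Every library matched its label, and the level fell by 1.39 on the log2 scale (SE 0.12, adjusted p = 0.00549 from limma). Libraries held an estimated 61500000 to 92700000 fragments, the medians being 62400000 for controls and 81100000 for Nr2f2 d/d, which puts 3 fragments on a 1 kb gene at 0.0324 to 0.0488 FPKM. Epithelial, stromal, smooth muscle and endothelial markers were all present. The 12 epithelial markers summed to 1050 to 1512 FPKM in controls and 1454 to 1628 in Nr2f2 d/d, with all 12 log2 fold changes above 0 (median 0.35) and Krt8 and Elf3 past the adjusted threshold. For Spint2 and St14 the change was only 0.03 and 0.01, and their mean FPKM was slightly lower in Nr2f2 d/d. The counts for the other lists are also of log2 fold changes. Mesothelial markers (6 genes, 5 higher) summed to 131 to 168 and 213 to 306 FPKM, and stromal markers (10 genes, 5 higher) to 1792 to 2099 and 2568 to 4995 FPKM. Both sums were higher in every Nr2f2 d/d library. The 5 higher stromal markers were the matrix genes Col1a1, Col1a2, Col3a1, Dcn and Lum. The 5 lower were Pdgfra, Pdgfrb, Vim, Hoxa11 and Hoxa10. Of these, Vim (log2 fold change -0.66, unadjusted p = 0.00967 from limma) passed the threshold of the study. Without Krt19, which the epithelial list also holds and which was left out after the values were seen, the other 5 mesothelial markers summed to 69.6 to 95.8 FPKM in controls and 87.2 to 109 FPKM in Nr2f2 d/d, so that the groups overlapped. Endothelial markers (10 genes, 9 lower) summed to 377 to 501 and 245 to 305 FPKM. The part of these shifts in the junction gene values was not tested.

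Of the 77 junction genes, 40 reached 0.5 FPKM on average across the libraries and entered the test: 11 of 22 claudins, occludin and all Tjp genes, 9 of 14 connexins, 9 of 22 cadherins and 7 of 15 desmosomal genes. The threshold of the study was a 1.4-fold difference in either direction that also passed the 0.05 level before adjustment. By that rule 10 of the 40 differed (25%, where 8.8% of all 14323 genes tested did), 9 of them higher in Nr2f2 d/d (22.5%, against 4.7% of all genes) and 1 lower (against 4.1%). With p-values adjusted over all genes, 4 of the 40 passed (10%, against 2.62% of all genes). All 4 were higher in Nr2f2 d/d, a direction in which 1.09% of all genes passed. The groups did not overlap for 7 of the 40 (17.5%), close to the 15.4% among all genes. Of the 40, 36 were over 0.5 FPKM in both group means. Another 3, Cldn2 and Gja3 among them, passed the filter through the Nr2f2 d/d mean alone, and Cdh10 through the Nr2f2 f/f mean alone. Cldn2 and Gja3 are both among the 9 called higher, and a filter passed in that way favours that direction.

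The median log2 fold change (Nr2f2 d/d over Nr2f2 f/f, on log2(FPKM + 0.5)) was 0.21 over the 40 genes, with 27 higher and 13 lower. Over all genes tested it was -0.02, with 46.7% higher, against 67.5% of the 40. By class it was 0.01 for claudins, -0.13 for occludin and the Tjp genes, 0.48 for connexins, -0.05 for cadherins and 0.43 for desmosomal genes. All 7 desmosomal genes tested were higher in the mean of Nr2f2 d/d, as were 7 of 9 connexins, 7 of 11 claudins and 4 of 9 cadherins. These are counts of direction, not of calls. With no filter on low values the median was 0.02 over the 76 junction genes above 0 in some library, 0.21 for desmosomal genes, 0.15 for connexins, 0.01 for claudins and 0.005 for cadherins. With a filter at 1 FPKM it was 0.20 for connexins. Without Nr2f2 f/f replicate 2 the median was 0.01 for occludin and the Tjp genes and 0.23 for claudins. Over all fits without 1 library it ran from -0.03 to 0.23 for claudins and from -0.08 to 0.05 for cadherins, so neither class had a stable direction.

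**Figure D1:**
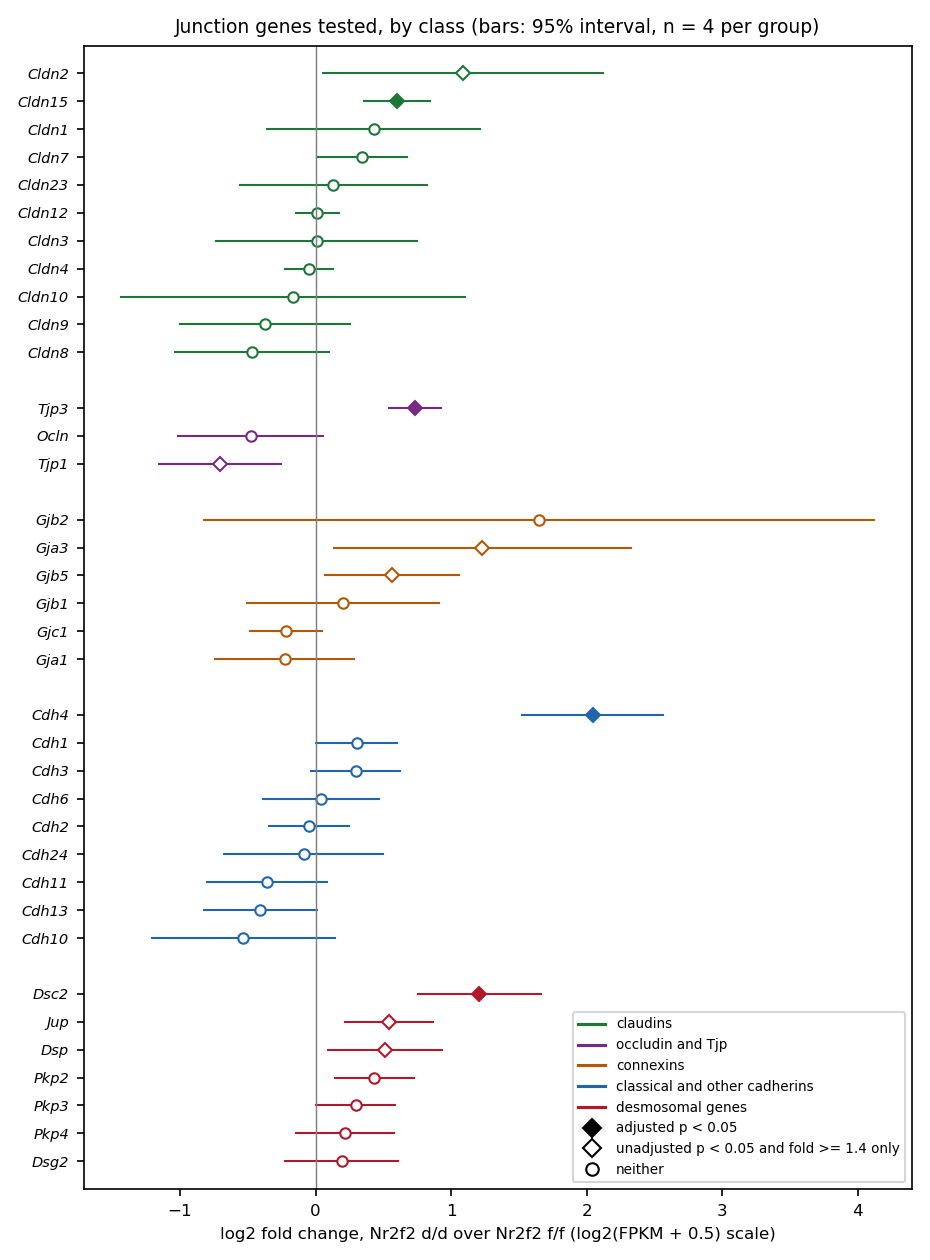
Log2 fold change (x axis, Nr2f2 d/d over Nr2f2 f/f on log2(FPKM + 0.5)) of 36 of the 40 junction genes tested, grouped and coloured by class, with bars for the 95% interval of the limma fit (n = 4 libraries per group). Filled diamonds mark the 4 genes with an adjusted p under 0.05 and open diamonds the other 6 past the threshold of the study; every desmosomal gene lies to the right of 0, and Tjp1 is the one gene called to its left.

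Claudins are the membrane strands of the tight junction, and in this tissue a few of them made up most of the message. Cldn3, which tightens the paracellular barrier, alone held 38.3% to 58.9% of the summed claudin FPKM in control libraries and 33.3% to 57.7% in Nr2f2 d/d libraries. Its level was 224, 204, 233 and 252 FPKM in Nr2f2 f/f and 244, 286, 111 and 355 FPKM in Nr2f2 d/d. The Nr2f2 d/d libraries thus spread both below and above the controls, and the log2 fold change of 0.01 had a 95% interval of -0.73 to 0.75. Cldn7, found along the whole lateral membrane of many epithelia, was at 99.5, 76.5, 66.6 and 67.5 FPKM in Nr2f2 f/f and at 97.9, 106, 82.4 and 105 FPKM in Nr2f2 d/d. Its groups overlapped through Nr2f2 f/f replicate 1, and the difference of 0.34 on the log2 scale (SE 0.14, adjusted p = 0.222 from limma) passed neither rule.

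Cldn10, a claudin that forms ion pores in other epithelia, varied most within the control group among the claudins tested. It stood at 63.8, 145, 31.7 and 18.9 FPKM in Nr2f2 f/f and at 45.9, 33.1, 49.0 and 47.4 FPKM in Nr2f2 d/d. All Nr2f2 d/d values lay inside the control range, and without Nr2f2 f/f replicate 2 the log2 fold change went from -0.16 to 0.36. That library also held the gland protease gene Prss29 at 1444 FPKM, with Nr2f2 f/f replicate 1 at 244 and the other 6 libraries between 0.041 and 41.6 FPKM. The summed gland markers, 42.3 to 1455 FPKM in controls and 43.7 to 67.2 FPKM in Nr2f2 d/d, were mostly this gene in Nr2f2 f/f replicates 1 and 2 and Nr2f2 d/d replicate 4, but not in the other 5 libraries. Its part in the Cldn10 values was not tested.

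Cldn15, which forms sodium channels between intestinal epithelial cells, was the one claudin that rose by the adjusted test. The gene lies at chr5:136966616-136975858 (plus strand, GENCODE vM21 on GRCm38), and the AGGTCA match printed above is in its promoter window. Its level was 11.5, 9.25, 8.01 and 10.1 FPKM in Nr2f2 f/f and 15.4, 15.5, 14.9 and 13.8 FPKM in Nr2f2 d/d. Every Nr2f2 d/d library was above every control. The means were 9.70 ± 1.45 and 14.9 ± 0.797 FPKM (SD, n = 4 each), which is a difference of 0.60 on the log2 scale (SE 0.11, adjusted p = 0.0323 from limma). The difference kept the threshold of the study when any 1 library was left out, whereas the adjusted p stayed under 0.05 in 2 of those 8 fits and reached 0.106.

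Cldn2, a cation and water pore of leaky epithelia, was low in controls, at 0.217, 0.069, 0.230 and 0.106 FPKM. In Nr2f2 d/d it was at 0.972, 0.389, 3.15 and 0.269 FPKM. The groups did not overlap, yet replicate 3 held most of the signal in Nr2f2 d/d. The log2 fold change of 1.09 (SE 0.45, adjusted p = 0.218 from limma) passed the threshold of the study and not the adjusted one. It kept the former in 2 of 8 fits that left out a library.

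The remaining claudins tested showed no called difference. Cldn4, a sealing claudin, had means of 38.7 ± 3.52 and 37.3 ± 1.48 FPKM, with a 95% interval of the log2 difference from -0.23 to 0.13. For Cldn12 the means were 6.99 ± 0.31 and 7.07 ± 0.37 FPKM and the interval ran from -0.14 to 0.17. These were the narrowest intervals among the claudins, and both genes were picked for that after their values were seen. Cldn1, Cldn8, Cldn9 and Cldn23 had log2 fold changes from -0.47 (Cldn8) to 0.43 (Cldn1), all with overlapping groups.

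The plaque of the tight junction held genes called in opposite directions by the threshold of the study. Tjp3 (ZO-3), a scaffold found in epithelia, lies at chr10:81273207-81291581 on the minus strand. It was at 7.78, 7.48, 8.02 and 6.78 FPKM in Nr2f2 f/f and at 14.4, 11.8, 12.4 and 12.7 FPKM in Nr2f2 d/d. The lowest Nr2f2 d/d library was well above the highest control. The level rose, with a control mean of 7.51 ± 0.535 and an Nr2f2 d/d mean of 12.8 ± 1.09 FPKM (SD, n = 4 each), by 0.73 on the log2 scale (SE 0.084, adjusted p = 0.00829 from limma). The call was kept in all 8 fits that left out 1 library, with an adjusted p of at most 0.0375.

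Tjp1 (ZO-1), the scaffold shared by epithelia, endothelia and other cells, lies at chr7:65296165-65527781 on the minus strand. Its level was 34.0, 47.4, 24.6 and 25.5 FPKM in Nr2f2 f/f and 21.4, 18.03, 18.7 and 19.2 FPKM in Nr2f2 d/d. Every Nr2f2 d/d library was below every control, and the Nr2f2 d/d values lay close together. The means of 32.9 ± 10.6 and 19.3 ± 1.44 FPKM differed by -0.70 on the log2 scale (SE 0.20). This passed the threshold of the study in all 8 fits without a library, but not the adjusted threshold (adjusted p = 0.0982 from limma). A two-sided exact permutation test gave p = 0.0286, the smallest that 4 against 4 libraries allow. Any gene whose groups do not overlap gets this value, as 15.4% of all genes tested did, so it only restates the separation. The controls with the most Tjp1, replicates 1 and 2, were also those with the most Prss29, and without replicate 2 the log2 difference was -0.51. Endothelial markers, whose cells also use Tjp1, were lower as well: Cdh5, the cadherin of endothelial adherens junctions, was at 55.3 ± 5.27 and 27.8 ± 5.09 FPKM (log2 fold change -0.99, adjusted p = 0.0149 from limma). The part of either in the Tjp1 values was not tested.

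Occludin (Ocln), the first membrane protein found in the tight junction, was at 10.96, 15.5, 6.89 and 7.57 FPKM in Nr2f2 f/f and at 7.48, 6.95, 5.79 and 7.26 FPKM in Nr2f2 d/d. The difference of -0.48 on the log2 scale (adjusted p = 0.284 from limma) was called by neither rule, and its highest controls were the same replicates, 1 and 2, as for Tjp1.

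Within the summed level of occludin and the Tjp genes the shares shifted in every library. Tjp1 made up 39.6% to 49.2% of the sum in controls and 28.7% to 29.7% in Nr2f2 d/d. Tjp3 made up 7.75% to 12.9% and 18.8% to 19.7%. As a ratio, Tjp1 over Tjp3 was 4.38, 6.34, 3.07 and 3.75 in controls and 1.49, 1.52, 1.51 and 1.51 in Nr2f2 d/d. The ratio was nearly the same in the 4 Nr2f2 d/d libraries and spread widely among controls. It was chosen after the values of both genes were seen and is a description with no test. The sum itself was 73.8 ± 15.8 FPKM in controls and 66.1 ± 5.16 FPKM in Nr2f2 d/d.

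**Figure D2:**
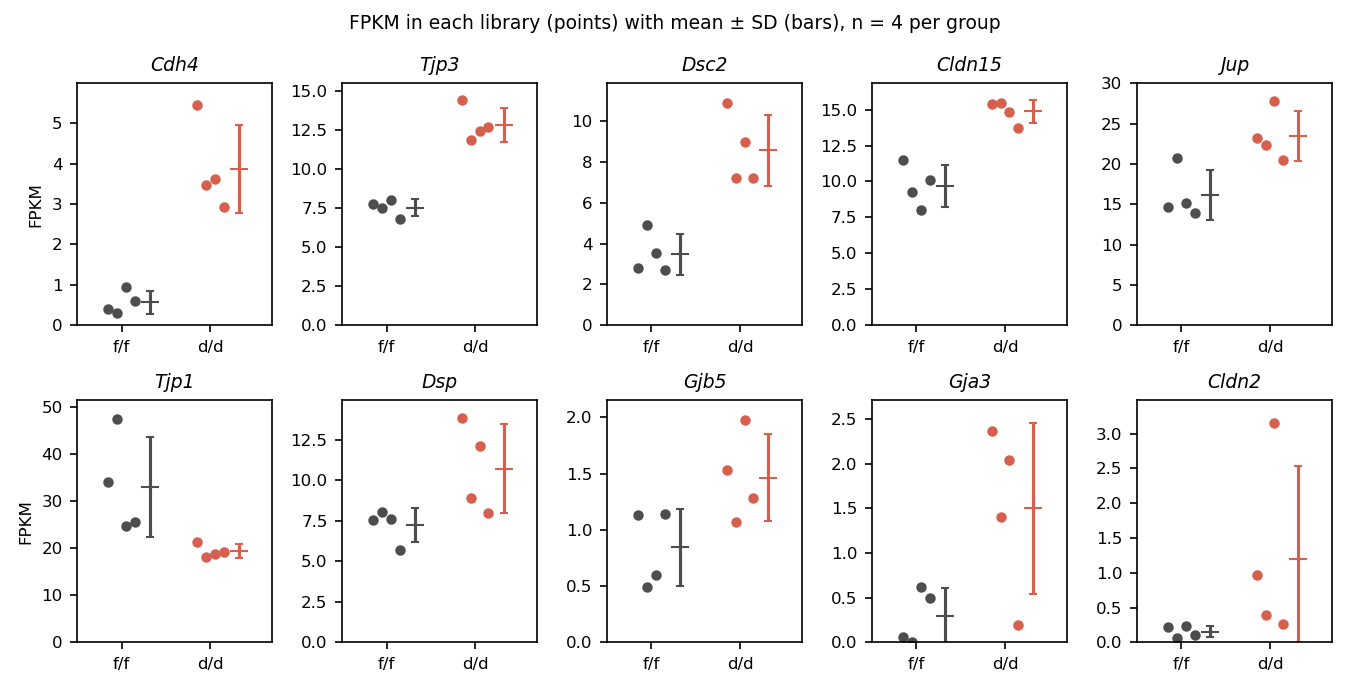
FPKM (y axis, from 0 in each panel) of the 10 junction genes past the threshold of the study, in order of their p-value, in each Nr2f2 f/f (grey) and Nr2f2 d/d (red) library, replicates 1 to 4 from left to right, with the mean and SD of each group beside the points (n = 4; SD bars are cut at 0). The groups part completely for Cdh4, Tjp3, Dsc2, Cldn15, Tjp1 and Cldn2 and overlap for Jup, Dsp, Gjb5 and Gja3.

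Connexins gave the widest spread within groups. Gja1 (connexin 43), the main channel of stroma and myometrium, was the most abundant, with 54.2% to 78.7% of the summed connexin FPKM over all 8 libraries. It was at 71.9, 78.7, 58.5 and 68.9 FPKM in Nr2f2 f/f and at 56.1, 55.3, 92.8 and 41.8 FPKM in Nr2f2 d/d. Nr2f2 d/d replicate 3 was above all controls while the other 3 were below all of them, and the log2 fold change of -0.23 had an interval of -0.74 to 0.28.

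Gjb2 (connexin 26), which the luminal epithelium expresses around implantation in rodents, was at 22.4, 3.30, 2.11 and 0.71 FPKM in Nr2f2 f/f and at 22.1, 5.21, 52.9 and 3.34 FPKM in Nr2f2 d/d. One control and 2 Nr2f2 d/d libraries were high and the others low. With group means of 7.13 ± 10.2 and 20.9 ± 22.9 FPKM, the log2 fold change of 1.65 carried an SE of 1.08 (adjusted p = 0.410 from limma). With all 8 libraries, no difference beyond the spread between them was detectable. Gjb2 passed the threshold of the study in 1 of the 8 fits without a library, that without Nr2f2 f/f replicate 1 (log2 fold change 2.48), and the adjusted one in none. Gjc1 (connexin 45), a channel of smooth muscle, was at 14.6, 10.5, 11.3 and 14.0 FPKM in Nr2f2 f/f and at 9.99, 10.1, 11.6 and 10.9 FPKM in Nr2f2 d/d. Its groups overlapped, with a log2 fold change of -0.22 and an adjusted p of 0.318 from limma.

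Gja3 (connexin 46), best known from the lens, was at 0.060, 0.006, 0.621 and 0.5 FPKM in Nr2f2 f/f and at 2.36, 1.4, 2.04 and 0.194 FPKM in Nr2f2 d/d. Replicates 1 to 3 of Nr2f2 d/d were above all controls and replicate 4 was among them. The log2 fold change of 1.23 (SE 0.48, adjusted p = 0.196 from limma) passed the threshold of the study, and in 3 of the 8 fits without a library. Gjb5, a channel of skin and placenta, was at 1.13, 0.496, 0.602 and 1.15 FPKM in Nr2f2 f/f and at 1.53, 1.07, 1.98 and 1.29 FPKM in Nr2f2 d/d. One Nr2f2 d/d library, replicate 2, fell among the controls, and the log2 fold change was 0.56 (SE 0.22, adjusted p = 0.193 from limma). The call by the threshold of the study was kept in 4 of 8 fits.

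Gjb1, a connexin of the liver and other epithelia, had a log2 fold change of 0.20 with overlapping groups, and no other connexin was called. In Nr2f2 d/d, replicate 3 was the highest of the 4 libraries for Gja1, Gjb1, Gjb2 and Gjb5, and replicate 4 the lowest for Gja1, Gja3 and Gjb2. Replicate 3 was also the Nr2f2 d/d library with the lowest Nr2f2 and the highest summed stromal markers (4995 FPKM). The collagen genes Col1a1, Col1a2 and Col3a1 held most of that sum, at 1141, 1191 and 1289 FPKM. The part of the stromal markers and of Nr2f2 in the connexin values was not tested.

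**Figure D3:**
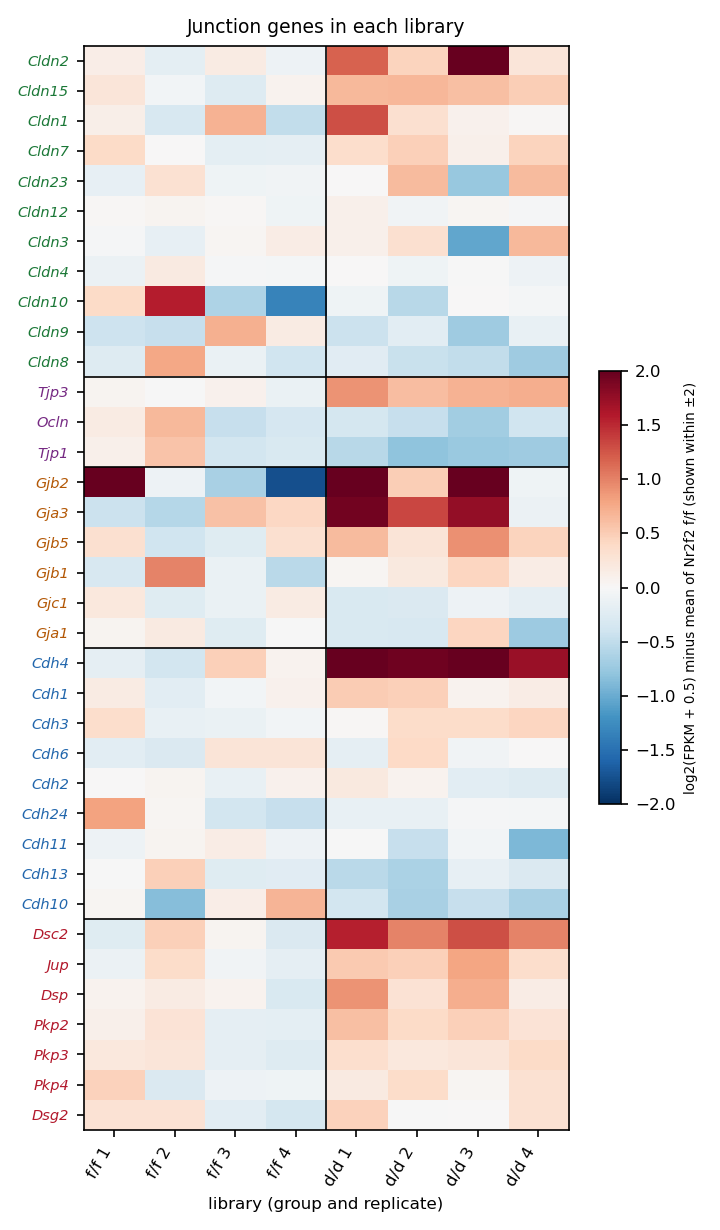
Deviation of log2(FPKM + 0.5) from the Nr2f2 f/f mean (colour, shown within 2 log2 units either way) for 36 of the 40 junction genes tested (rows, by class) in the 8 libraries (columns). Cdh4, Tjp3, Dsc2 and Cldn15 are above the control mean in all 4 Nr2f2 d/d libraries and Tjp1 is below it in all 4, while Gjb2, Cldn10 and Cldn3 vary within a group.

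Cadherins were led by Cdh11 and Cdh1, which mark stroma and epithelium. Cdh11, the cadherin of mesenchymal cells, was at 81.3, 90.9, 97.4 and 81.7 FPKM in Nr2f2 f/f and at 87.1, 63.4, 83.9 and 46.6 FPKM in Nr2f2 d/d. The difference of -0.36 on the log2 scale (SE 0.19, adjusted p = 0.323 from limma) was not called. Cdh1 (E-cadherin), the epithelial cadherin, was at 72.3, 55.7, 61.9 and 68.6 FPKM in Nr2f2 f/f and at 92.1, 90.0, 67.8 and 71.1 FPKM in Nr2f2 d/d. Replicates 1 and 2 of Nr2f2 d/d were above all controls, and the log2 fold change of 0.30 (SE 0.13) stayed under the fold threshold with an adjusted p of 0.231 from limma. Cdh24, a less studied classical cadherin, was at 9.40, 5.33, 3.89 and 3.62 FPKM in Nr2f2 f/f and at 4.65, 4.66, 5.07 and 5.02 FPKM in Nr2f2 d/d. Its sign rested on Nr2f2 f/f replicate 1: the log2 fold change was -0.09 with that library and 0.18 without it.

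Cdh4 (R-cadherin), a classical cadherin known from the retina, brain and developing kidney, showed the largest log2 fold change among the 4 genes past the adjusted threshold. The gene lies at chr2:179442431-179899373 on the plus strand. It was at 0.411, 0.302, 0.947 and 0.592 FPKM in Nr2f2 f/f and at 5.45, 3.48, 3.62 and 2.93 FPKM in Nr2f2 d/d. The lowest Nr2f2 d/d library was above the highest control. The control mean of 0.563 ± 0.283 and the Nr2f2 d/d mean of 3.87 ± 1.10 FPKM (SD, n = 4 each) lay 6.88-fold apart, and the level rose by 2.05 on the log2(FPKM + 0.5) scale (SE 0.23, adjusted p = 0.00829 from limma). The adjusted p stayed under 0.05 in each of the 8 fits that left out a library, at most 0.0375.

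Cdh2 (N-cadherin), the close relative of Cdh4, was at 1.82 ± 0.165 and 1.75 ± 0.352 FPKM, with a 95% interval of the log2 difference from -0.35 to 0.24. The ratio of Cdh4 to Cdh2 was 0.226, 0.159, 0.598 and 0.303 in controls and 2.53, 1.80, 2.42 and 2.05 in Nr2f2 d/d. Thus Cdh4 was the lower of this pair in all controls and the higher in all Nr2f2 d/d libraries, a comparison chosen after the values were seen. Cdh3 (P-cadherin), Cdh6, Cdh10 and Cdh13 had log2 fold changes from -0.53 (Cdh10) to 0.29 (Cdh3), with overlapping groups and no call.

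Desmosomal genes were the one class in which every gene tested was higher in the mean of Nr2f2 d/d. With no filter, 10 of the 14 above 0 in some library were higher and 4 lower, beside 10296 of 21070 genes higher overall in that fit. Summed over all 15, the desmosomal genes came to 74.4, 72.7, 60.4 and 55.6 FPKM in Nr2f2 f/f. In Nr2f2 d/d they came to 95.8, 85.1, 91.2 and 83.4 FPKM. The sums did not overlap. The means were 65.8 ± 9.24 and 88.9 ± 5.69 FPKM (SD, n = 4 each), and this sum was given no test because the genes were grouped with earlier results known.

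Dsc2 (desmocollin 2), the desmocollin of simple epithelia, rose. It was at 2.78, 4.89, 3.52 and 2.69 FPKM in Nr2f2 f/f and at 10.9, 7.23, 8.98 and 7.22 FPKM in Nr2f2 d/d. All Nr2f2 d/d libraries were above all controls. The means were 3.47 ± 1.02 and 8.58 ± 1.74 FPKM (SD, n = 4 each), with a log2 fold change of 1.21 (SE 0.20, adjusted p = 0.0249 from limma). The threshold of the study held in all 8 fits without a library, while the adjusted p was under 0.05 in 2 of them and ranged from 0.0188 to 0.0780.

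Its partner cadherin Dsg2 (desmoglein 2), which pairs with Dsc2 in simple epithelia, was at 7.65, 7.65, 5.26 and 4.73 FPKM in Nr2f2 f/f and at 8.66, 6.17, 6.23 and 7.77 FPKM in Nr2f2 d/d. These groups overlapped, and the log2 fold change of 0.19 had an interval of -0.22 to 0.61. The ratio of Dsc2 to Dsg2 was 0.560 ± 0.138 in controls and 1.20 ± 0.213 in Nr2f2 d/d, a description chosen after the values were seen.

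Jup (plakoglobin), the armadillo protein that both desmosomes and adherens junctions use, was at 14.7, 20.7, 15.1 and 13.9 FPKM in Nr2f2 f/f and at 23.2, 22.4, 27.9 and 20.5 FPKM in Nr2f2 d/d. The groups touched at Nr2f2 f/f replicate 2 and Nr2f2 d/d replicate 4. The log2 fold change of 0.54 (SE 0.14) passed the threshold of the study and had an adjusted p of 0.0841 from limma. The threshold of the study held in 6 of the 8 fits without a library. In those fits the adjusted p from limma ran from 0.0317, without Nr2f2 f/f replicate 2, to 0.204, and was under 0.05 in 1. Dsp (desmoplakin), the link to keratin filaments, was at 7.54, 8.05, 7.59 and 5.71 FPKM in Nr2f2 f/f and at 13.8, 8.90, 12.1 and 7.96 FPKM in Nr2f2 d/d. Nr2f2 d/d replicate 4 lay among the controls, and the log2 fold change of 0.51 (SE 0.18, adjusted p = 0.170 from limma) passed the threshold of the study in 5 of 8 fits without a library.

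Of the plakophilins, the armadillo proteins that cluster desmosomal cadherins, Pkp4 was the most abundant desmosomal gene in 5 of the 8 libraries. It was at 26.3, 15.5, 17.8 and 17.97 FPKM in Nr2f2 f/f and at 21.5, 24.7, 19.5 and 23.5 FPKM in Nr2f2 d/d, with a log2 fold change of 0.22 and an adjusted p of 0.452 from limma. Nr2f2 f/f replicate 1 was the highest of the 8 libraries. Pkp2, named after its values were seen because its groups part, was at 5.38, 6.12, 4.37 and 4.27 FPKM in Nr2f2 f/f and at 7.80, 6.66, 7.11 and 6.15 FPKM in Nr2f2 d/d. Its log2 fold change of 0.43 (SE 0.13, adjusted p = 0.107 from limma) stayed just under the 1.4-fold threshold, and Pkp3 had a log2 fold change of 0.29. The epithelial marker Krt8, a keratin that desmosomes anchor, rose over the same libraries, from 114 to 192 FPKM (log2 fold change 0.74, adjusted p = 0.00829 from limma), while Epcam had a log2 fold change of 0.06 and Krt18 one of 0.06. The part of epithelial content in the desmosomal values was not tested.

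**Figure D4:**
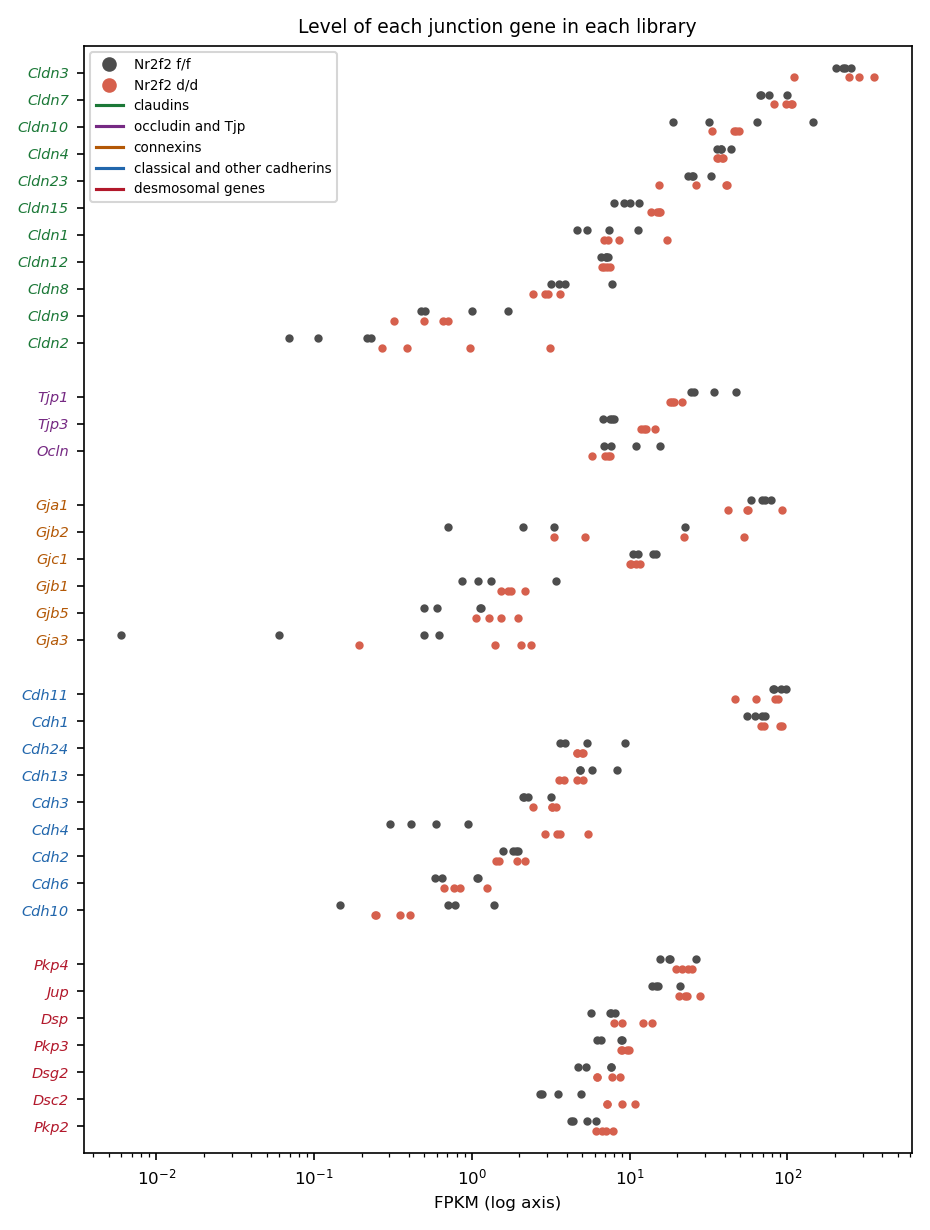
FPKM (x axis, log scale) of 36 of the 40 junction genes tested in each Nr2f2 f/f (grey) and Nr2f2 d/d (red) library, ordered within each class by mean level. Cldn3 leads the set at 111 to 355 FPKM, Gja1, Cdh11 and Cdh1 follow Cldn7 at 41.8 to 97.4 FPKM, and the separation of the groups is widest for Cdh4.

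The other 37 junction genes had a mean under 0.5 FPKM. In 19 of them every library was under 0.0488 FPKM, the level of 3 fragments on a 1 kb gene in the shallowest library, and 1 of those, Dsg1a, was listed at 0 throughout. The highest mean was 0.351 FPKM for Dsg3, a desmoglein of stratified epithelium, at 1.39, 0.749, 0.090 and 0.055 FPKM in Nr2f2 f/f and at 0.078, 0.095, 0.050 and 0.301 FPKM in Nr2f2 d/d. Its high libraries were again Nr2f2 f/f replicates 1 and 2. Cldn22 had a mean of 0.342 FPKM, but all of its exon sequence lies within exons of Wwc2 on the opposite strand in GENCODE, so its reads cannot be assigned with certainty.

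For 3 of these low genes the groups did not overlap, and they are named for that after their values were seen. They are 8.33% of the 36 that were above 0 in some library, beside 7.38% of all genes under the filter and above 0, so the share is near the background. Cdh26 was at 0.080, 0.076, 0.056 and 0.114 FPKM in Nr2f2 f/f and at 0.011, 0.009, 0.029 and 0.018 FPKM in Nr2f2 d/d. Cdh23, a cadherin of hair cell tip links, was at 0.060 to 0.108 and 0.118 to 0.164 FPKM. Dsg1c was at 0 to 0.008 and 0.041 to 0.083 FPKM. No library exceeded 0.164 FPKM for any of the 3. In a fit with no filter on low values Cdh26 and Dsg1c passed an adjusted p of 0.05 beside the 4 genes above, and no fold change is given for them. In that fit 6 of 76 junction genes passed it, beside 1.55% of all genes, and 11 passed the threshold of the study, Cdh16 added, beside 6.26% of all genes.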

How the data were processed

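Whole uterus at GD3.5 was profiled in 4 Nr2f2 f/f and 4 Nr2f2 d/d libraries, and groups were taken from the labels. The labels do not say whether each library is 1 mouse, so p-values measure the spread between these libraries. Paired-end 76-bp reads were filtered by the authors at an average quality of 20, and the deposited FPKM values were made by them. The submitters' processing notes name cutadapt 1.12, STAR 2.5.2b, mm10, featureCounts 1.5.0-p1 of Subread and Cufflinks 2.0.2. Gene annotation, gene lengths and strand setting are not given in the sources used here. The library kit, TruSeq RNA v2, does not mark strand, so reads of genes that overlap on opposite strands cannot be told apart. The study tested counts with DESeq2, and those counts were not used here.

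Genes whose average reached 0.5 FPKM were fitted as log2(FPKM + 0.5) with limma 3.58.1 (R 4.3.3, eBayes with trend, two-sided, Benjamini-Hochberg over all 14323 genes), with no covariate. Fold changes on this scale understate those of low genes. Exact permutation tests were two-sided (Python 3.11.15, scipy 1.17.1). Depth was estimated from 1306 small RNA genes under 400 bp, whose values came out as whole fragments, within 0.1, for 97.1% to 98.5% of values. Floors cover counting error only. On simulated data for this comparison with 14323 genes, 101 of 103 genes changed 4-fold and 86 of 97 changed 2-fold were recovered, and 15 of 202 calls were false.

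The junction genes, the partner list and the marker lists were chosen with earlier results of these data known. Named genes were Nr2f2, every junction gene past either threshold, the 3 with the highest mean in each class, and partners past a threshold. Alternatives were other pseudocounts (0.1 and 1), filters (none, and a mean of 1 FPKM), scaling, variance models, replicate blocks and leaving out each library. Of the genes tested, 4 enter the fit and the counts but are not reported here one by one. All 77 junction genes matched GENCODE vM21 by symbol.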

Additional observations from a re-analysis of the deposited data

Results flagged for a closer look

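In 2 of 42 groups of 4 libraries, 1 library lay farther from its neighbour than Dixon's 95% critical value allows, a test by which chance marks about 5 in 100 groups. Nr2f2 was at 6.898 FPKM in Nr2f2 d/d replicate 3, the lowest of that group, where the other 3 libraries were at 9.42 to 9.74 FPKM. Gjb2 was at 22.418 FPKM in Nr2f2 f/f replicate 1 against 0.71 to 3.30 FPKM in the others, and the log2 fold change of Gjb2 without that library is the highest of its 8 leave-one-out values, 2.48.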

How the results depend on the processing

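Cdh4, Tjp3, Dsc2 and Cldn15 were the same 4 genes past the adjusted threshold under both pseudocounts, a filter at 1 FPKM, median-ratio scaling, quantile normalization and both variance models. Leaving out 1 library gave 6 to 12 junction genes past the threshold of the study (7.55% to 10.1% of all genes passed it) and 2 to 4 past the adjusted one: the first count was 6 without Nr2f2 d/d replicate 1 or 3, and the second was 2, Cdh4 and Tjp3, without Nr2f2 d/d replicate 1, 2 or 3 or Nr2f2 f/f replicate 3 or 4. Over all genes the adjusted count went from 375 to between 42 and 348, and was over 1.5 times lower without Nr2f2 d/d replicate 1 or 2 or Nr2f2 f/f replicate 1, 3 or 4. The leave-one-out medians were -0.03483 to 0.2339 for claudins and -0.08058 to 0.05147 for cadherins, and that for occludin and the Tjp genes turned to 0.00805 without Nr2f2 f/f replicate 2. Among the genes named by rule, single log2 fold changes crossed 0 for Cldn10 (-0.6123 to 0.3566), Cldn3 (-0.203 to 0.3564, and -0.1449 under quantile normalization) and Cdh24 (-0.2435 to 0.1775), none of them called. Those of Cldn23, Cdh6, Cdh2, Cldn4 and Cldn12, also not called, crossed 0 within -0.135 to 0.424. The connexin median of 0.4759 was 0.1478 with no filter, 0.2014 with a filter at 1 FPKM and 0.7641 with a pseudocount of 0.1. With no filter the medians were 0.2059 for desmosomal genes and 0.02495 for all junction genes, as genes near 0 enter.

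With the replicate block from the titles, 0 junction genes and 1 gene of all passed the adjusted threshold, and with the replicate block from the descriptions, on 6 libraries, 0 and 0 did, although 9 and 10 junction genes passed the threshold of the study, as did 8.68% and 9.23% of all genes. Under the latter the claudin median was 0.304, the connexin one 0.2818, that of occludin and the Tjp genes 0.05404, and Cldn10 was at 0.2986. Same-numbered libraries did not deviate together (r from -0.204 to 0.0452 over 4 title pairs, -0.204 to 0.149 over 3 description pairs), and 0 controls correlated best with their own number, so the numbers were not taken to pair mice. With 4 libraries per group and whole tissue, changes smaller than the spread between libraries, as in Gjb2 and Cldn3, were not detectable.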

Other observations

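Of the proteins that work with the junction genes, 73 are in the table. Of 67 tested, 36 were higher and 31 lower in Nr2f2 d/d (median log2 fold change 0.04), 5 passed the threshold of the study (7.46%, against 8.8% of all genes) and 3 the adjusted one (4.48%, against 2.62% of all genes). Of the 17 regulators of epithelial junction genes among them, 3 (17.6%) passed the first and 2 (11.8%) the second. Krt5 and Snai3 count among those past the threshold of the study, the latter as a regulator, but reached the filter at 0.5 FPKM through the Nr2f2 d/d mean alone. Magi1, a scaffold of tight and adherens junctions, was at 7.08, 7.99, 5.94 and 6.19 FPKM in controls and at 4.71, 3.87, 3.74 and 4.18 FPKM in Nr2f2 d/d, all below all controls (log2 fold change -0.66, adjusted p = 0.0281 from limma). Twist1, a mesenchymal transcription factor known to repress E-cadherin, was at 4.73 to 5.56 and 7.09 to 9.47 FPKM (0.61, adjusted p = 0.0248 from limma). Elf3, an epithelial transcription factor, was at 11.9 to 24.8 and 37.2 to 74.8 FPKM (1.43, adjusted p = 0.0415 from limma). In the 8 fits without 1 library, the adjusted call held in 2 for Magi1, 4 for Twist1 and 2 for Elf3, and the adjusted p from limma reached 0.0989, 0.0853 and 0.112.

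Krt5, the keratin of basal and stratified epithelia that desmosomes anchor there, was at 0.014, 0.007, 0.029 and 0 FPKM in controls and at 4.81, 5.65, 4.86 and 0.322 FPKM in Nr2f2 d/d. The groups do not overlap, though replicate 4 is far below the other 3. Snai3 had means of 0.343 and 0.726 FPKM. The catenins that tie cadherins to actin were abundant and not called: Ctnnb1 had means of 208 and 227 FPKM, Ctnna1 73.9 and 73.1 FPKM and Ctnnd1 40.6 and 42.1 FPKM.

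Among the vascular junction genes left out of the set, Cdh5 fell and Gja4 (log2 fold change -0.62, adjusted p = 0.0643 from limma) was lower in all 4 Nr2f2 d/d libraries than in any control. Gja5 (0.00) and Cldn5 (0.10) had overlapping groups, and Cldn5 was highest, at 38.9 FPKM, in Nr2f2 f/f replicate 2.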
